A study of Caenorhabditis elegans with 2 samples.

Results

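Autosomal sites enriched with GFP-tagged NHR-19 that lie in divergent shared promoters numbered 593, of 4560 peaks in the list that the authors built from both replicates. A member is an autosomal peak whose summit lies over 500 bp from any of 612 annotated tRNA genes and inside the promoter windows of protein-coding genes on both strands. A promoter window runs from 1000 bp upstream to 500 bp downstream of an annotated 5′ end (WBcel235, the assembly called ce11 in the files). Of the 4560 peaks, 3611 were autosomal and 3465 of these lay over 500 bp from a tRNA gene. These 3465 comprise the 593 members, 1244 peaks with promoter windows on 1 strand only (one-sided promoter peaks) and 1628 peaks outside promoter windows. Members therefore made up 32.3% of 1837 autosomal promoter peaks. Each member was given to the nearest minus-strand and nearest plus-strand 5′ end whose windows hold its summit, which gave 579 gene pairs and 1158 genes, and pairs are written below with the minus-strand gene first.

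The data come from chromatin immunoprecipitation and sequencing of whole L1 larvae of the nematode Caenorhabditis elegans that were starved after bleaching, at an age of 6 h. Strain OP791 carries the fosmid transgene wgIs791, in which nhr-19 is fused to TY1, EGFP and 3xFLAG tags, with an unc-119(+) marker in an unc-119(tm4063) background, and the labels mention no change to the native nhr-19 gene. There was 1 group of 2 biological replicates and no second condition, so members are set beside other peaks of the same libraries, as a description and with no test over peaks. The immunoprecipitation used an anti-GFP antibody by 1 label field, while another field names nhr-19, and the control behind the peaks is not given in the sources used here, so enrichment that is not specific to NHR-19 could not be set apart.

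Genes on opposite strands that point away from each other can share 1 stretch of intergenic DNA, so that a protein bound there lies in the promoter of either gene. Binding alone does not say which gene, if any, it serves. Nuclear hormone receptors are zinc-finger transcription factors that classically read half-sites related to AGGTCA, and the family is greatly expanded in nematodes. Many nematode transcripts are trans-spliced to a leader, so an annotated 5′ end can lie downstream of the true start of transcription.

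The 6 sequences that follow belong to the strongest members that overlap no annotated exon, chosen among those of chromosomes II, III, IV and V, and are shown with the summit base and 50 bases on each side of it, because their base composition and shared words recur in the results. Each is intergenic sequence of the plus strand, read from the RefSeq WBcel235 genome, and capitals mark every 7-letter word that occurs, on either strand, in at least 3 of the 6.
mdh-2/F20H11.4 (chrIII:6608271-6608371): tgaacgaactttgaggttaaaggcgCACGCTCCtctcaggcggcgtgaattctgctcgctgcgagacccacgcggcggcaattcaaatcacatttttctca
rpl-20/Y17G9B.5 (chrIV:4750015-4750115): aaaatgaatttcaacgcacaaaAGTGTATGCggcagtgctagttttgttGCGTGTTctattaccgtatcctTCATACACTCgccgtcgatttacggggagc
K01G5.10/tasp-1 (chrIII:10759201-10759301): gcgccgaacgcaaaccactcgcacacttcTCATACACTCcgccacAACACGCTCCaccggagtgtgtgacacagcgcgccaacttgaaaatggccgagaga
rpl-15/K11H12.8 (chrIV:654877-654977): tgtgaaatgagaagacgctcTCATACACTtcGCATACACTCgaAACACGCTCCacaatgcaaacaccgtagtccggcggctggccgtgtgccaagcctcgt
ska-3/rps-12 (chrIII:5679089-5679189): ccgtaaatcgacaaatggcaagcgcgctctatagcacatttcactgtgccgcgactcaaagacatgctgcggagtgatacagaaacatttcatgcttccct
iff-2/F54C9.14 (chrII:8561389-8561489): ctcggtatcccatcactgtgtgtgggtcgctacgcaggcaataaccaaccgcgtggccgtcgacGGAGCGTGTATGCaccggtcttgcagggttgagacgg

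The strongest member lay between F01G4.6 and pfd-1, a gene for a subunit of prefoldin, the complex that hands unfolded actin and tubulin to the cytosolic chaperonin. Its peak, chrIV:11149535-11150000, had a signal of 6943 in the combined list, 3664 in replicate 1 and 3341 in replicate 2, with the summit 281 bp from the 5′ end of F01G4.6 and 328 bp from that of pfd-1. The signal is the authors' own value for each peak, of unstated scale, and ranks peaks within a list only. It had rank 3 of all 4560 peaks by signal.

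Next came the site between mdh-2, a mitochondrial malate dehydrogenase gene, and F20H11.4, with 6007 in the combined list, 3112 in replicate 1 and 2934 in replicate 2. The site between rpl-20, a gene of the large ribosomal subunit, and Y17G9B.5 had 5078 in the combined list, 2677 in replicate 1 and 2422 in replicate 2. The site between K01G5.10 and tasp-1, the gene for the protease taspase, had 4968 in the combined list, 2676 in replicate 1 and 2335 in replicate 2. These 3 differ in where the summit stands: it is near the middle of the space in the mdh-2 and rpl-20 pairs, but 56 bp from the tasp-1 end and 729 bp from the other in the K01G5.10/tasp-1 pair.

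The 25 strongest members found in both replicates had combined signals of 1959 to 6943. Of the 25, 11 stood on chromosome III, which held 143 of all 593 members. The translation machinery recurs among the 25. A ribosomal protein gene stood in the pairs of 7 of the 25, against 41 of all 593 members. The 7 were rpl-20, rpl-15 (3833), rpl-12 (3096) and rpl-7A (2478) of the large subunit and rps-12 (3298), rps-1 (3052) and rps-19 (2665) of the small subunit. Translation factor genes were eef-1G (3429), the eIF5A gene iff-2 (3264) and the elongation factor gene eef-1A.1 (2114), and ifet-1, a translational repressor that binds eIF4E, is the partner of rps-1. The cytosolic chaperonin genes cct-8 and cct-1 had 2663 and 2537, and the mitochondrial chaperonin gene hsp-60 had 2804.

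Partners across the same space often had other roles. The DREAM complex gene lin-54 shared its site with rpl-12, the DNA damage gene hsr-9 with rps-19, the SET domain gene set-21 with rpl-7A, the replisome gene ctf-4 with eef-1G, the kinetochore gene ska-3 with rps-12, and the Dishevelled gene mig-5 with cct-1. The replication factor C gene rfc-4 shared the eef-1A.1 site. The remaining pairs of the 25 were nhl-2/tag-340 (3841), F02E9.3/F02E9.1 (2801), drr-2/set-16 (2553), larp-1/wip-1 (2408), F25B5.6/F25B5.3 (2372), gpap-1/scpr-1 (2233), ddo-2/F25E5.8 (2157), ndk-1/F25H2.6 (2121) and T27E9.2/ant-1.1 (1959). In 23 of the 25 the summit lay between both 5′ ends, the exceptions being F25B5.6/F25B5.3 and ddo-2/F25E5.8.

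**Figure D1:**
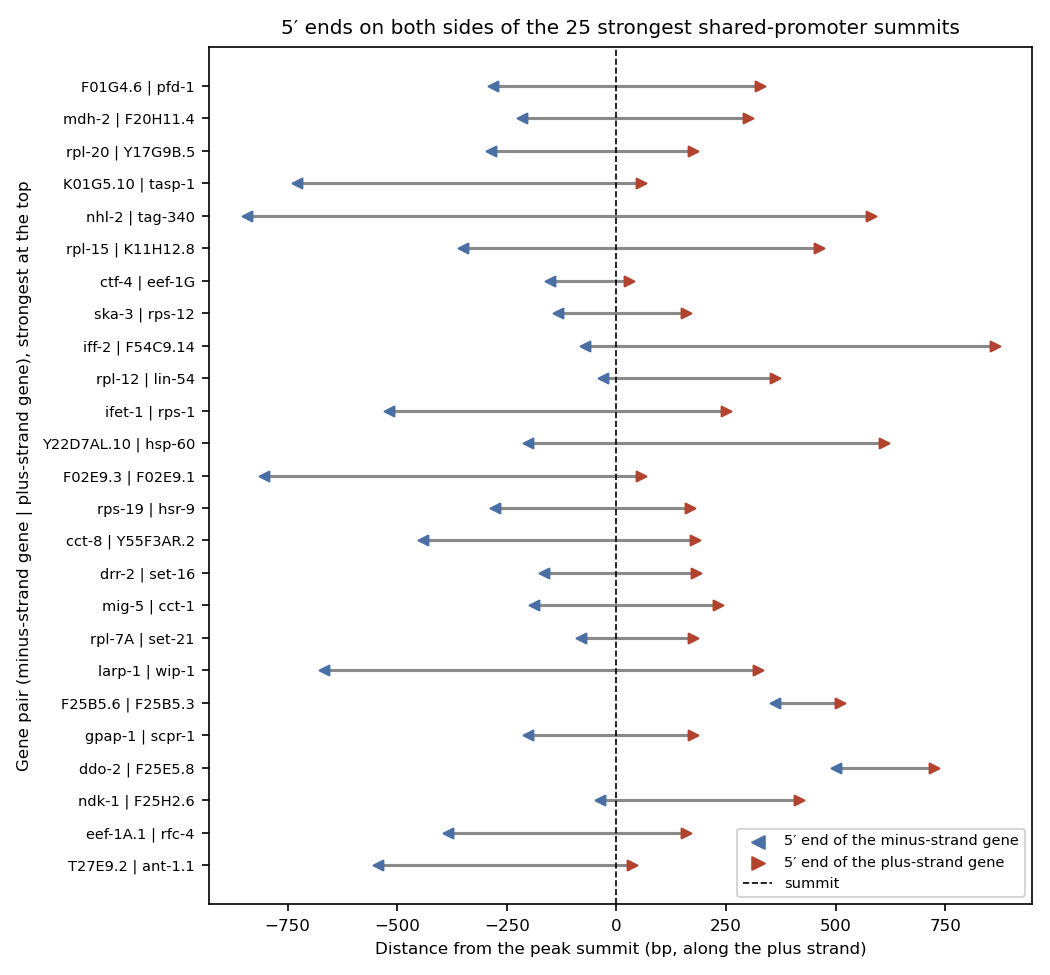
Annotated 5′ ends of the minus-strand gene (blue, pointing left) and plus-strand gene (red, pointing right) by distance from the summit (bp, dashed line at 0) for the 25 strongest members found in both replicates, strongest at the top. In 23 rows the dashed line crosses the space between the ends, and it passes outside it for F25B5.6/F25B5.3 and ddo-2/F25E5.8.

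The rule itself, with windows that reach further upstream than downstream, favours genes that point away from each other, and 2833 of 2937 annotated autosomal pairs with overlapping windows on opposite strands have that order. The minus-strand 5′ end lay to the left of the plus-strand one in 583 members (98.3%, 95% Wilson interval 96.9 to 99.1%), and the 5′ ends overlapped in 10. The summit itself lay between the ends in 532 members (89.7%, interval 87.0 to 91.9%), inside or downstream of the minus-strand gene's end in 27 and of the plus-strand gene's end in 24. All intervals given are 95% Wilson intervals and cover counting error only. The strongest members with overlapping ends were sws-1/mrps-35 (1098) and Y17G7B.20/ash-2 (1027), followed by pus-1/ctps-1 (548), rpb-7/Y54E10BR.2 (533) and F42A10.5/abcf-3 (458). Of the 593 members, 40 lay in the windows of more than 2 genes, and 14 pairs held 2 members each.

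Among the 532, the 5′ ends were a median of 505.5 bp apart, with a range of 67 to 1831 bp. The summit lay a median of 149.5 bp from the nearer end, within 100 bp of it in 169 (31.8%, interval 28.0 to 35.8%) and within 50 bp in 78 (14.7%, interval 11.9 to 17.9%). The nearer end belonged to the minus-strand gene in 263, to the plus-strand gene in 268, and the distances were equal in 1. The closest ends belonged to gei-14/slc-25A32, 67 bp apart with a signal of 176, then ttr-24/ttr-25 (71 bp, 184), trm-1/ints-2 (74 bp, 278), madf-8/gsr-1 (75 bp, 352) and K07B1.7/try-5 (82 bp, 285). The widest spaces were those of egrh-2/lep-2 (1831 bp, 216), C49A1.10/clec-115 (1776 bp, 263), F52H3.6/ttc-36 (1768 bp, 196), mif-4/ipla-6 (1659 bp, 1559) and nmat-2/rab-5 (1598 bp, 574). At these extremes, the members of gei-14/slc-25A32, egrh-2/lep-2 and F52H3.6/ttc-36 were not found in both replicates.

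With the minus-strand 5′ end set to 0 and the plus-strand one to 1, summits centred on the middle, with a median position of 0.502 and quartiles of 0.306 and 0.675. The central 20% of the space held 166 summits (31.2%, interval 27.4 to 35.3%), while the 20% at the minus-strand end held 13.0% and the 20% at the plus-strand end 12.03%. The middle 60% of the space held 399 of the 532 (75%, interval 71.2 to 78.5%). The rule itself pushes summits to the middle of spaces over 1000 bp, since both windows must hold them. In spaces of at most 1000 bp, where it does not, the middle 60% held 358 of 481 member summits (74.4%, interval 70.3 to 78.1%), against 109 of 173 summits of candidates in such spaces that failed the authors' threshold (63.0%, interval 55.6 to 69.8%). The intervals of members and failing candidates narrowly miss each other there. Over spaces of any length the failing candidates had 67.5% of 252 (interval 61.5 to 72.9%), which does overlap that of the members. Among spaces of at most 1000 bp, those of failing candidates were longer, with a median of 590 bp against 467 bp for members. Over spaces of any length, the median distance to the nearer end was similar, at 157 bp for failing candidates and 149.5 bp for members. Some spaces held more than 1 failing candidate, and whether length accounts for the difference in position was not tested.

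**Figure D2:**
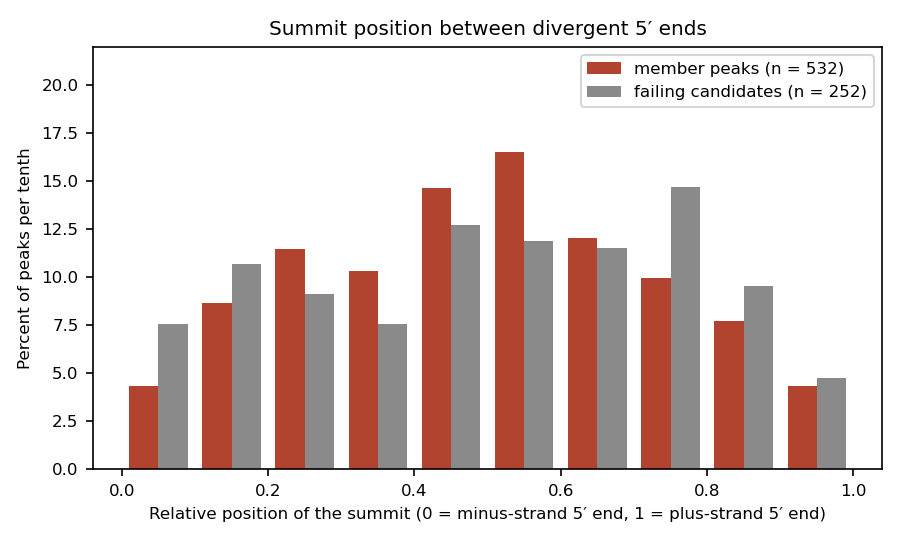
Percent of summits by position, in equal steps, in the space between divergent 5′ ends (0 is the minus-strand end, 1 the plus-strand end) for the 532 member peaks with the summit between the ends (red) and the 252 failing candidates in such spaces (grey). Member summits are most frequent near the centre and least frequent next to either 5′ end.

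Signal was almost uncorrelated with the length of the space and with closeness to its ends or middle. Across the 532 members, which share the same libraries, the Spearman correlation of signal with the distance between the 5′ ends was -0.03, with the distance to the nearer end 0.002, and with closeness to the middle 0.006. Median signal was 378, 371, 401.2, 460 and 473 over successive steps of 20% of the space, starting at the minus-strand end, and the Spearman correlation of signal with that position was 0.13. Over the 433 of them found in both replicates this correlation was weaker, at 0.068 with the signal of replicate 1 and 0.063 with that of replicate 2. The 6 members printed above show the same spread, with the summit of iff-2/F54C9.14 72 bp from iff-2 and 863 bp from its partner, and that of ska-3/rps-12 134 and 159 bp from its ends.

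Members had higher signal than one-sided promoter peaks in the typical case. The median signal of members was 410 (quartiles 234 and 793, range 50.5 to 6943), that of one-sided promoter peaks 291 (quartiles 186 and 569, highest 13097) and that of peaks outside promoters 231, all in the combined list. The ratio of medians of members to one-sided peaks was 1.41, a log2 ratio of 0.50. It held on each autosome, at 1.25 on I, 1.35 on II, 1.504 on III, 1.48 on IV and 1.47 on V. Among the peaks found in both replicates, the medians were 270.5 for members and 223 for one-sided peaks in replicate 1, and 230 for members and 192 for one-sided peaks in replicate 2, ratios of 1.21 and 1.20.

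The size of this difference depended on which peaks were compared. Within the strongest 50% of autosomal peaks, a choice that itself narrows the range of signal, the log2 ratio was 0.096. Members were 6 of the 25, 26 of the 100 and 146 of the 500 strongest autosomal peaks over 500 bp from tRNA genes, that is 24.0%, 26.0% and 29.2%, against 17.1% of all 3465. Peaks listed with a width of exactly 400 bp made up 34.7% of members (206) and 47.8% of one-sided peaks (595). Among these, the median signal was 192 for members and 184 for one-sided peaks, and among peaks of other widths it was 593 for members and 554 for one-sided peaks. Within each of these width classes the medians of members and one-sided peaks thus lay closer together than over all peaks. By distance from the nearer 5′ end, the ratio of medians was 1.45 for summits downstream of it, 1.40 at up to 100 bp upstream and 1.45 at over 100 to 200 bp, but 0.923 at over 200 to 300 bp, 1.06 at over 300 to 500 bp and 1.31 at over 500 to 1000 bp.

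**Figure D3:**
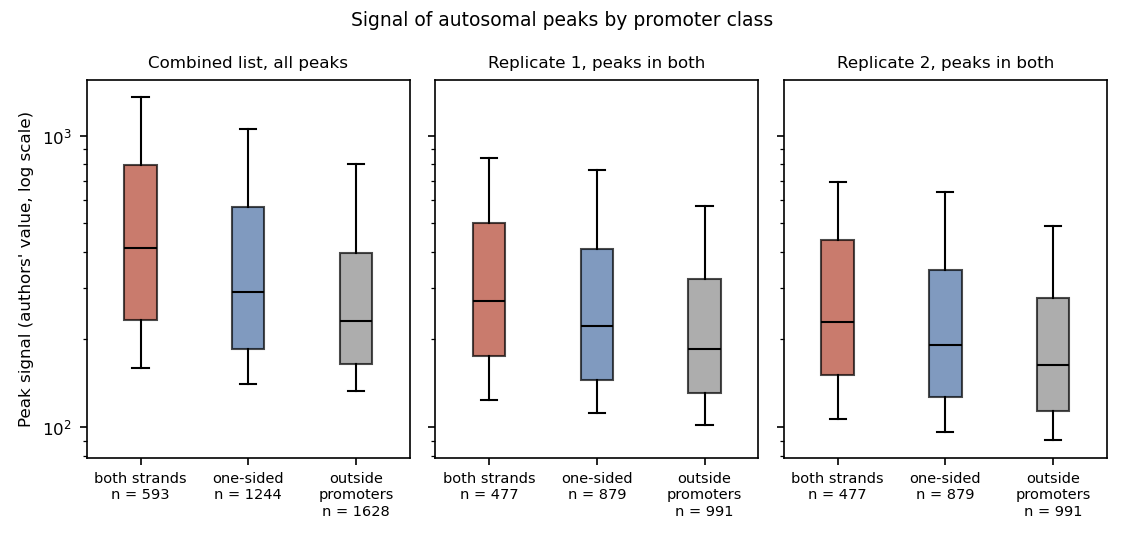
Peak signal (the authors' value, log axis) of members (both strands, red), one-sided promoter peaks (blue) and peaks outside promoters (grey) in the combined list and, for peaks found in both replicates, in each replicate. Boxes span the quartiles with the median as a line, and whiskers run from the 10th to the 90th percentile. Members have the highest median in all 3 panels, and the boxes overlap widely.

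Both replicates held most members. A summit within 200 bp was present in the thresholded list of each replicate for 477 members (80.4%, interval 77.1 to 83.4%), against 70.7% of one-sided peaks (interval 68.1 to 73.1%) and 60.9% of peaks outside promoters. Replicate 1 held 507 members, replicate 2 held 514, and 49 were in neither thresholded list. Over the 477, signals in replicates 1 and 2 correlated with a Spearman rho of 0.954, a description across peaks of the same libraries, and summits of the replicates lay a median of 8 bp apart. The 116 members not found in both had a median combined signal of 160 (range 50.5 to 327), and the 477 had 499.

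A candidate in the windows of both strands passed the authors' threshold more often than other candidates. Of 16446 autosomal candidates in the ranked list over 500 bp from tRNA genes, 21.1% passed. In windows of both strands 593 of 977 passed (60.7%, interval 57.6 to 63.7%), against 1244 of 4458 in one-sided windows (27.9%, interval 26.6 to 29.2%) and 14.8% outside promoters. Passing also varied with distance from the 5′ end in both classes, so the shares were compared at equal distance. At over 100 to 200 bp upstream of the nearer end 71.3% of candidates in windows of both strands passed (204 of 286), against 50.2% of one-sided ones (290 of 578). At over 500 to 1000 bp the shares were 38.6% in windows of both strands and 22.2% in one-sided windows. Passing and signal come from the same peak calls and are not independent of each other.

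**Figure D4:**
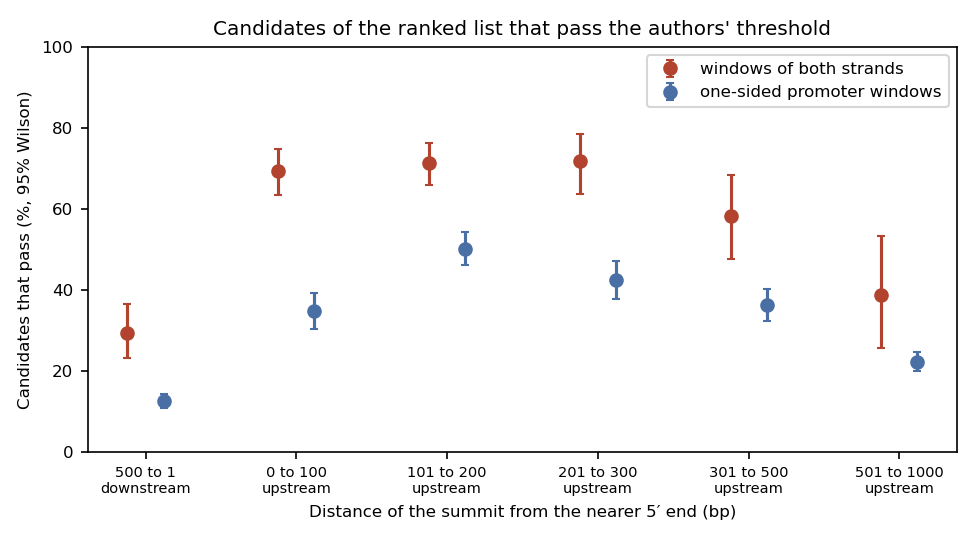
Percent of ranked candidates that pass the authors' threshold, by distance of the summit from the nearer annotated 5′ end (bp), in windows of both strands (red) and in one-sided promoter windows (blue), with 95% Wilson intervals. The red points lie above the blue ones in every distance class, with 71.3% for both strands and 50.2% for one-sided windows at over 100 to 200 bp.

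Seen from the genome, most divergent promoters held no member. Of 2937 annotated autosomal pairs on opposite strands with overlapping promoter windows, 620 (21.1%, interval 19.7 to 22.6%) held a member, a count in which a member can serve more than 1 pair. The share was 24.4% for 5′ ends up to 200 bp apart, 38.6% at over 200 to 400 bp, 35.0% at over 400 to 600 bp, 105 of 350 pairs at over 600 to 800 bp, 19.2% at over 800 to 1200 bp and 3.78% at over 1200 to 2000 bp. The overlap of the windows, in which a member is counted, itself narrows as the distance grows beyond 500 bp. Chromosome III had the highest share with 31.0% of its 493 pairs (interval 27.1 to 35.3%), followed by I with 24.95% of 529 (interval 21.5 to 28.8%), and V had the lowest with 15.2% of 790 (interval 12.9 to 17.9%). The central 50% of the chromosomes had 22.1% and the outer parts 19.7%, with overlapping intervals. None of the shares by chromosome or chromosome part takes the distance between the 5′ ends into account.

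Ribosomal protein genes had the highest shares of the 26 gene lists, but with few genes in each, and the interval of the large subunit overlaps those of many other housekeeping lists. Of 5362 genes in such pairs, 1199 (22.4%) had a member in a shared window. Of the genes for the small ribosomal subunit that stand in such a pair, 19 of 21 had one (90.5%, interval 71.1 to 97.3%), and of those for the large subunit 25 of 32 (78.1%, interval 61.2 to 89.0%). Among the 41 members with a ribosomal protein gene in the nearest pair, 39 were found in both replicates and the median signal was 718, against 410 over all members. In 3 members both genes encode proteins of the cytosolic ribosome. The rps-14/rpl-36 site had 1142 in the combined list, 588 in replicate 1 and 539 in replicate 2. The rps-10/rpl-24.1 site had 894, and the rpl-39/rps-30 site 596.

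Other lists of housekeeping genes were also above the share over all genes, and none of their shares takes the distance between the 5′ ends into account. Cytosolic chaperonin and prefoldin genes had 7 of 11 and splicing factor genes 22 of 37 (59.5%, interval 43.5 to 73.7%), led by prp-19 (1387) and by rsp-2 and rsp-1, which share 1 site between them (956). Translation factor genes and heat shock genes each had 12 of 24, TCA cycle genes 4 of 8 and mitochondrial ribosome genes 15 of 31 (48.4%). Genes of vesicle and nuclear transport had 22 of 47, with sec-61.B of the protein translocon at 1773. Proteasome genes had 10 of 24, the strongest being rpn-3, which shares its site with the chaperone gene hsp-110 (1813), and oxidative phosphorylation genes had 15 of 42, led by the ATP synthase gene atp-1 (1740).

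Aminoacyl-tRNA synthetase genes had 6 of 15, nucleolus and RNA polymerase genes 6 of 15 with fibrillarin's gene fib-1 at 1073, and cell cycle genes 6 of 14 with efl-1, an E2F-family gene, at 1354 and lin-35, the Retinoblastoma orthologue, at 728. DNA replication and repair genes had 9 of 28. Shares of ubiquitin system genes (8 of 32), fatty acid genes (3 of 13), neuropeptide genes (4 of 15) and homeobox genes (2 of 9) stood near the share over all genes. The intervals of all these lists, and of the TCA cycle list, include the share over all genes. The 4235 genes in none of the lists had 22.1%.

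Large families of environmental and sensory genes had few members. Chemoreceptor genes had 10 of 291 (3.44%, interval 1.88 to 6.21%), C-type lectin genes 3 of 81 (3.70%) and F-box, MATH and BATH genes 9 of 119 (7.56%). Among the chemoreceptor genes with a member, srh-2 shared its site with icl-1, the glyoxylate cycle gene (1219), and sri-5 with rsr-1 (1014). Nuclear hormone receptor genes had 6 of 45, led by nhr-47 (1403), nhr-68 (1008) and nhr-142 (829), cuticle collagen genes 6 of 39, and genes of xenobiotic metabolism 6 of 45. The intervals of the last 3 lists include the share over all genes. Genes of 1 family faced each other at sites with signals below the median of members, such as hsp-16.2/hsp-16.41 (298), col-117/col-3 (210), ugt-11/ugt-9 (209) and gst-2/gst-4 (153, not found in both replicates), and also at stronger ones, such as the rsp-2/rsp-1 site above.

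**Figure D5:**
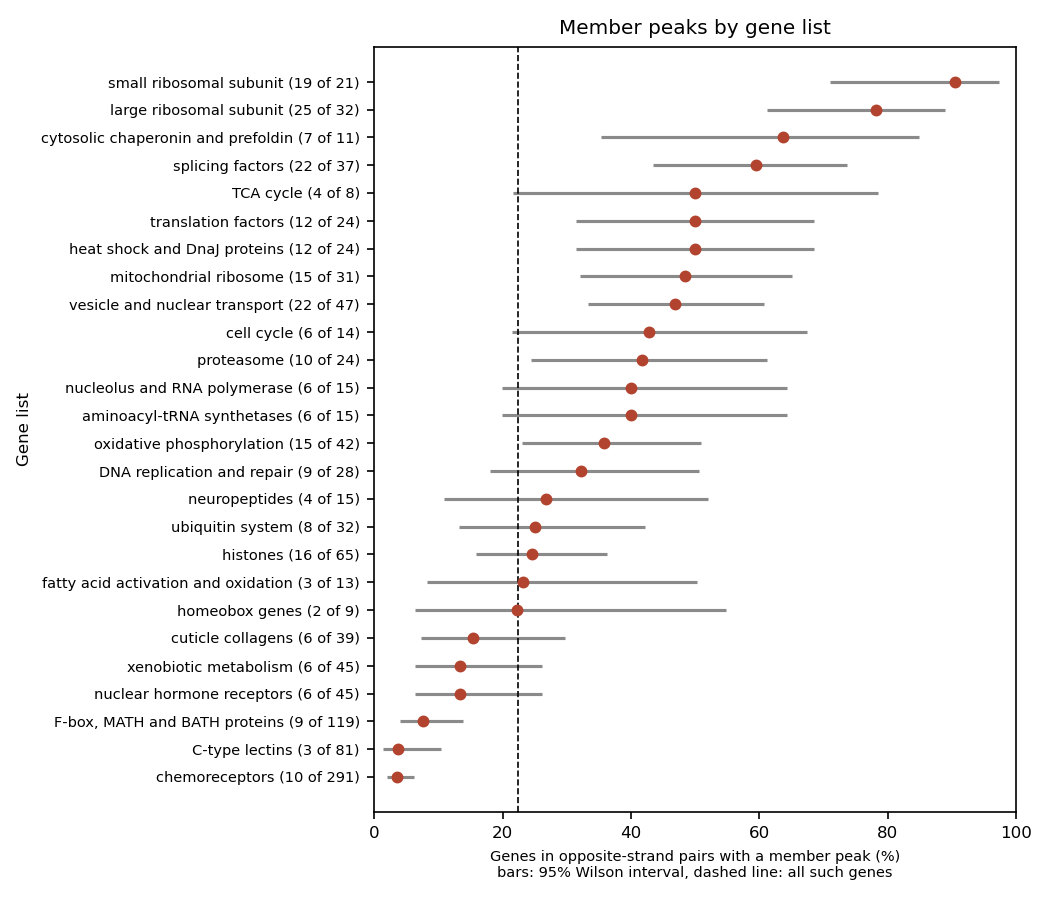
Percent of the genes of each list that have a member, among its genes that stand in an opposite-strand pair with overlapping promoter windows (points, with 95% Wilson intervals as bars and the number of genes in brackets). The dashed line is the 22.4% of all such genes, and the lists run from 90.5% for the small ribosomal subunit to 3.44% for chemoreceptors.

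Histone genes had 16 of 65 (24.6%, interval 15.8 to 36.3%). The strongest site by a histone gene lay between wapl-1, a cohesin release factor gene, and htz-1, the H2A.Z gene (1933). Of 7 members between a pair of histone genes, 4 were found in both replicates: his-67/his-68 (993), his-35/his-41 (391), his-6/his-5 (384) and his-60/his-59 (229). Core histone genes are near-identical copies, so how the authors' reads were placed among them is uncertain.

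The listed gene was not the one nearer to the summit more often than its partner. Of 167 members between the ends with exactly 1 gene in a list, the summit was nearer to the listed gene in 73 and to its partner in 94. Counts for a single list cover members with 1 gene in that list, also where the partner stands in another list, so they are not parts of the 167. For small-subunit genes the summit was nearer to the listed gene in 5 and to the partner in 13, for large-subunit genes in 10 and 15, and for chaperonin and prefoldin genes in 0 and 6. Proteasome genes showed the other order, with 8 nearer to the listed gene and 2 nearer to the partner. So did other lists, such as aminoacyl-tRNA synthetase genes (5 and 1) and TCA cycle genes (4 and 1). Translation factor genes were balanced (6 and 6), and the counts per list are small.

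The sequence at member summits was rich in GC. The median GC content of the summit base and 50 bases on each side was 46.5% in members and 45.5% in one-sided peaks, against 39.6% in the 384 failing candidates in windows of both strands and 33.7% in the middle of 2218 divergent spaces without a peak. At the middle of the members' own spaces, not centred on the summit, it was 35.6%, near that of spaces without a peak. Within members it was 50.5%, 47.5%, 45.5% and 42.6% over 4 groups of near-equal size in order of falling signal. The printed sequences span 44.6% (rpl-20/Y17G9B.5) to 61.4% (iff-2/F54C9.14). GC content can alter how well DNA is sequenced, and its part in the signal was not tested.

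The GAGA repeat (GAGAGA or TCTCTC) was the most frequent of 8 words searched on both strands within 50 bp of the summit, though not within 100 bp, where a run of 7 T occurred in 37.1% of members and the repeat in 26.0%. Within 50 bp it occurred in 103 members (17.4%, interval 14.5 to 20.6%), fewer than the 24.1% of one-sided peaks (interval 21.8 to 26.6%) and more than the 8.85% of failing candidates and the 5.86% of spaces without a peak. Among the 41 members with a ribosomal protein gene it occurred in 1 (2.44%, interval 0.432 to 12.6%), against 18.5% of the other 552. The other words searched were also less frequent in the 41, such as a run of 7 T (2.44% against 10.9%), except TTTCAG (9.76% against 7.25%). The E-box CACGTG occurred in 4.05% of members and 7.23% of one-sided peaks, and the CG-rich box (CCGCCC or GGGCGG) in 8.09% of members and 6.59% of one-sided peaks. None of the GAGA repeat, the E-box and the CG-rich box occurred in 433 members (73.0%). Of the printed sequences only that of K01G5.10/tasp-1 holds one of them, GAGAGA near its end.

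Nuclear receptor half-sites were no more frequent at members than at one-sided peaks, failing candidates or spaces without a peak. AGGTCA, its AGTTCA variant, the form GGGTCA or the form GGTTCA, on either strand, occurred in 60 members (10.1%, interval 7.94 to 12.8%), against 13.3% of one-sided peaks, 13.8% of failing candidates and 14.2% of spaces without a peak. At the middle of the members' own spaces, not centred on the summit, the share was lower, with 40 of 532 (7.52%, interval 5.57 to 10.1%). The share at summits was 7.38% in the 149 strongest members and 16.2% in the 148 weakest. AT-rich words were also fewer at member summits than in the middle of spaces without a peak. TATAAA occurred in 4.72% of members and 14.1% of spaces without a peak, TTTCAG in 7.42% and 18.0%, and a run of 7 T in 10.3% and 21.9%. At the middle of the members' own spaces, TATAAA occurred in 9.59%, TTTCAG in 19.5% and a run of 7 T in 18.2%. The comparison thus depends on where the window is centred. The forkhead words GTAAACA and ATAAACA occurred in 5.40% of members and 4.91% of spaces without a peak.

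The words shared by the printed sequences were rare in the other members, where 8 of the 9 marked words had a higher share than in spaces without a peak. The word CATACAC, on either strand, occurs in 4 of the 6 sequences. It occurred in 1.19% of the other 587 members, against 2.17% of one-sided peaks and 0.812% of spaces without a peak. Likewise ACGCTCC occurs in 4 of the 6, in 2.56% of the other members, in 2.01% of one-sided peaks and in 2 of 2218 spaces without a peak (0.0902%). The word CACGCTC occurs in 4 of the 6, in 2.04% of the other members, in 2.09% of one-sided peaks and in 0.361% of spaces without a peak. A word with its letters in reverse order has the same base composition. In the other members, CATACAC and GCATACA were as frequent as their reversed letters (1.19%), and ACACGCT was less frequent (1.36% against 2.04%). The remaining marked words were more frequent than their reversed letters, such as ACGCTCC (2.56% against 0.681%). The sequences were chosen by signal and the words after the sequences were seen. At least 1 of the 9 marked words occurred in 71 of the 587 other members (12.1%, interval 9.70 to 15.0%), against 11.8% of one-sided peaks (interval 10.1 to 13.7%), 7.81% of failing candidates and 5.64% of spaces without a peak (interval 4.75 to 6.67%). In order of falling signal, the share over 4 groups of near-equal size of these members was 14.3%, 13.6%, 11.6% and 8.84%, with overlapping intervals. The ska-3/rps-12 sequence holds none of them.

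At the limits of the rule, the member next to a tRNA gene was F22G12.4/F22G12.5 (909 bp away, signal 198), and the nearest peak left out for that reason was Y38E10A.22/Y38E10A.24 (239 bp, 567), 1 of 6 such peaks in windows of both strands. At the edge of the windows stood ddo-2/F25E5.8, whose summit lies on the last base of a window (2157), while the peak of gstk-2/afmd-1 lay 2 bp outside (237). Within 20 kb of nhr-19 there was 1 member, between E02H1.1 and tag-124, 6898 bp away, with 1861 in the combined list, 1025 in replicate 1 and 837 in replicate 2. The extent of the fosmid is not given in the sources used here, so signal from the transgene and from the native locus cannot be told apart there.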

How the data were processed

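Peak lists on the ce11 assembly were deposited by the authors, per the file headers and labels, as ranked and thresholded lists for each of 2 biological replicates and for both together. For every peak the authors deposited a signal, compared here only between peaks of the same list, and a summit as an offset from the peak's start. No source used here names the aligner, peak caller, control or filters. The lists hold no read counts, so depth is unknown. In the ranked lists of the whole series 16 columns on single replicates carry no sample name and were not used. The members and gene lists were chosen with earlier results of these data known.

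Summits were assigned to 5′ ends of protein-coding genes (Ensembl release 115, WBcel235) with Python 3.11.15, numpy 2.4.6, pandas 2.3.3 and SciPy 1.17.1, and the assignment was checked on simulated data. A replicate held a member when its thresholded list had a summit within 200 bp; otherwise its value came from the ranked list. Words were sought within 50 bp of summits in the RefSeq WBcel235 genome. Shares have 95% Wilson intervals. With 1 group, no test was made. Named pairs are the 25 strongest in both replicates, the 4 strongest per list, pairs with both genes in lists, and those at extremes and limits. Gene lists number 26. Alternatives were other lists, replicates alone, merged summits, other windows, transcript ends, no tRNA exclusion and other word windows. Some named pairs enter the text only through counts, and 1 site is not reported here.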

Additional observations from a re-analysis of the deposited data

How the results depend on the processing

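The log2 ratio of median signal kept its sign in every setting. The number of members was 398 with the strongest 50% of autosomal peaks, 420 with windows of 500 bp upstream and 250 bp downstream and 816 with 2000 bp upstream, against the reported 593, and 533 to 612 otherwise. Shares of gene lists, of passing candidates and of words in other sets of peaks were not recomputed. With the strongest 50%, members made up 37.6% of promoter peaks, the log2 ratio of median signal to one-sided peaks was 0.096, the median position 0.520 and the share of annotated pairs with a member 14.4%. With the narrower windows these were 28.2%, 0.40, 0.512 and 24.4%, and 93.3% of summits lay between the 5′ ends. Windows of 2000 bp upstream gave 36.9% of promoter peaks. The 5′ ends of every transcript gave 29.6%, a log2 ratio of 0.55 and a position of 0.499. The list from pooled pseudoreplicates gave a log2 ratio of 0.47 and a position of 0.512. Leaving out either replicate gave log2 ratios of 0.34 to 0.37, positions of 0.516 to 0.517 and 19.03 to 19.4% of pairs, and a run of 7 T in 7.93% to 9.94% of members. Against ranked replicate lists, 98.0% of members were in both. The causes were not tested. Shares of words scale with the window by construction: within 25 bp and 100 bp of the summit the GAGA repeat occurred in 8.26% and 26.0% of members, the CG-rich box in 3.71% and 12.5%, half-sites in 5.23% and 17.7%, TATAAA in 1.18% and 15.2%, TTTCAG in 2.53% and 25.1%, forkhead words in 2.19% and 11.1% and runs of 7 T in 1.52% and 37.1%, and the E-box in 2.19% within 25 bp.

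No paired analysis was possible because the series holds 1 group. The depth of the libraries and the control are unknown, the unit of the peak signal is not stated, and annotated 5′ ends stand in for starts of transcription.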

Other observations

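Each of 14 gene pairs was given 2 members, and the 28 members concerned had a median signal of 304, against 410 over all members. Their summits did not always lie between the 5′ ends. The weaker eef-1A.1/rfc-4 member (131, not found in both replicates), for example, lay 356 bp downstream of the eef-1A.1 end. The pair of vdac-1, the gene of the mitochondrial porin, and R05G6.5 held sites of 830 and 386. That of B0432.10 and misc-1, a mitochondrial carrier gene, held 1070 and 547, and that of ecps-1 and atx-2, the ataxin-2 gene, held 903 and 567. The pair of par-5, a 14-3-3 gene, and M117.3 held sites of near-equal signal, 257 and 251. In the tim-1/Y75B8A.23 pair, the summits of 1837 and 270.2 matched the same summit of replicate 1, so the replicate 1 value of the weaker one, 926, is that of its neighbour.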
